A study of Mus musculus with 8 samples.

Results

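Spliced antisense transcripts are RNAs of at least 2 exons that are read from the DNA strand opposite a protein-coding gene. Here they are the transcripts of a catalogue of non-coding RNAs (NONCODE) whose first or last base lies in an exon of a protein-coding gene of the other strand and in no protein-coding exon of their own strand. A transcript also needed at least 50 reads over the 8 libraries, and mitochondrial transcripts were left out. Of 83057 transcripts in the deposited table, 2620 met this rule. They lie over exons of 1822 coding genes, which are called their partners, and form 1809 loci of overlapping transcripts on the same strand.

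Livers came from male C57BL/6 mice about 20 weeks old, 4 of them fasted for 24 h and 4 with free access to food (ad libitum). Per the labels, co-housed mice were assigned at random and killed at 10 am, and all libraries were stranded total RNA libraries. No mouse carried a stated genetic change. The question is which of these transcripts differ in liver after a fast. Values are CPM, read counts scaled by the TMM-adjusted total of the library. Unless another test is named, each adjusted p comes from the edgeR quasi-likelihood test. It was adjusted (Benjamini-Hochberg) over all 40840 transcripts tested, and a transcript passed under 0.05.

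Natural antisense RNAs share sequence, in complement, with the messenger RNA of their partner where the exons overlap. Some are known to lower or raise the level of that messenger, by pairing with it, by their own transcription or through proteins at the locus, and for most no role is known. In a fast the liver takes up fatty acids, burns them in mitochondria and peroxisomes, makes glucose and ketone bodies, and slows the synthesis of cholesterol and fatty acids. The nuclear receptor PPARA drives much of the fatty acid programme, and insulin and the SREBP factors drive the synthesis of lipids.

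Reads from a coding gene and from its antisense transcript could not be told apart where their exons overlap. Among 31 pairs of unspliced transcripts on opposite strands that share at least 90% of their bases, the median absolute log2 ratio of their reads was 0.13. All of these pairs were within 1.5-fold, and 54.8% were within 1.1-fold, although the kit marks the strand. The use of strand in counting is not given in the sources used here. These values are therefore reads over the exons of a spliced antisense transcript, from either strand, and fewer cells of a type and less RNA per cell cannot be told apart in whole liver.

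Fasted replicate 4 lay apart from the other 3 fasted libraries. Over all tested transcripts the first principal component held 47.6% of the variance. On it, fasted replicates 1 to 3 lay between 90.5 and 103, fasted replicate 4 at -4.37, and the ad libitum libraries between -75.3 and -66.6. Among transcripts with 21 to 200 reads in a library, odd counts made up 16.5 to 17.8% in fasted replicates 1 to 3 and 10.8% in fasted replicate 4, against 9.21 to 10.3% in the ad libitum libraries. The part of this difference between libraries in the results was not tested. Changes are therefore also given for fasted replicate 4 alone, set against the ad libitum group. That fit keeps all 8 libraries and gives fasted replicates 1 to 3 their own term. Its spread then comes from the other libraries. With 1 fasted library in that comparison, a call lost there does not show that a change is absent. Without the mitochondrial 16S rRNA, total reads were 90243439 to 119486211 in the fasted libraries and 51107745 to 68691606 in the ad libitum libraries. Ad libitum replicate 3 had no reads for that rRNA in the deposited counts, and each other library did.

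The transcripts are small in exon number and mostly without coding potential. Of the 2620, 1488 have 2 exons, 535 have 3 and 597 have 4 or more, up to 31. Their median length was 933.5 bases, against 882 bases in the other spliced transcripts of the table, and the median distance between their ends on the genome was 4309 bases. The coding score of the table (CNCI, below 0 for sequence that looks non-coding) was below 0 in 2338 of them. The base in the opposite exon was the 5′ end in 1366, the 3′ end in 747 and both ends in 507. That base lay in an untranslated region alone in 1191, in coding sequence alone in 885 and in an exon that is neither in 339 (other mixtures make up the rest). Ends, exons and length equalled those of a GENCODE transcript in 581, and 393 of these are classed there as antisense and 100 as lincRNA. In these 581, for which exon positions are known, a median of 43.1% of the transcript's bases lay opposite a coding-gene exon, and 252 had over 50% there. The read minimum was close for some: 90 further transcripts that met the position rule had 40 to 49 reads, and 88 members had 50 to 59.

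The splice sites of the matched transcripts show which strand they were built on, since the bases at an intron's ends read GT and AG on the transcribed strand and CT and AC on the other. Of 973 introns, both ends of 252 lay inside an exon of some GENCODE transcript and could be read. On the antisense strand, 212 of these (84.1%) had GT and AG, 17 had GC and AG, 23 had other bases, and 0 had CT and AC. The sites of 5 transcripts over genes of lipid metabolism and insulin signalling that passed the test are shown here, because both ends of their antisense intron lie inside annotated exons and could be read. Each shows 12 exon and 12 intron bases, 5′ to 3′ on the antisense strand, with the GT of the donor and the AG of the acceptor in capitals (GENCODE release 21 sequences, GRCm38, the build of the table).
Apoa4 antisense donor, chr9:46243336-46243359, minus strand: agtgacagacagGTggtggggcag
Apoa4 antisense acceptor, chr9:46243129-46243152, minus strand: cttctccctcAGgctcttctccag
Acot3 antisense donor, chr12:84053484-84053507, minus strand: tccaggatcacaGTaggtgccatc
Acot3 antisense acceptor, chr12:84043794-84043817, minus strand: tgtctgttacAGgcaaacccacta
Mid1ip1 antisense donor, chrX:10718254-10718277, minus strand: gttaaagagcgaGTgcttctggtt
Mid1ip1 antisense acceptor, chrX:10717559-10717582, minus strand: tgcccattccAGgtgctcaattta
Crat antisense donor, chr2:30414141-30414164, plus strand: ggagtaaggcagGTaagtgggctg
Crat antisense acceptor, chr2:30415208-30415231, plus strand: tccaccttgcAGatcgcaccctac
Foxo1 antisense donor, chr3:52269326-52269349, minus strand: atctgcgacaggGTgagcctcttc
Foxo1 antisense acceptor, chr3:52269012-52269035, minus strand: actctcctccAGcaggctcaggtt
All 5 transcripts had GT donors and AG acceptors.

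The first or last 90 bases of 3 of these transcripts lie wholly opposite coding sequence and in no annotated untranslated region. They are shown because reads over them cannot be assigned to a strand here: their complement is coding messenger of the partner. Capitals mark the bases opposite coding sequence, which are all 90 in each.
Apoa4 antisense 3′ end, chr9:46242621-46242710, minus strand: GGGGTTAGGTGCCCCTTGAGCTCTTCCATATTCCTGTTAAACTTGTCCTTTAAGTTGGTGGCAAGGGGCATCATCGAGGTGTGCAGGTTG
Acot3 antisense 5′ end, chr12:84053718-84053807, minus strand: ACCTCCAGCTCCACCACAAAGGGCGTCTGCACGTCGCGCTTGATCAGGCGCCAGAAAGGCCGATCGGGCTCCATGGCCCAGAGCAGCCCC
Mid1ip1 antisense 5′ end, chrX:10718621-10718710, minus strand: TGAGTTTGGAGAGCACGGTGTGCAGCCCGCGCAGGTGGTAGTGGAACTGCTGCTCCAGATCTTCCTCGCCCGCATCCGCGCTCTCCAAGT
In Apoa4 this is the 3′ end of the antisense transcript, and in Acot3 and Mid1ip1 it is the 5′ end.

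**Figure D1:**
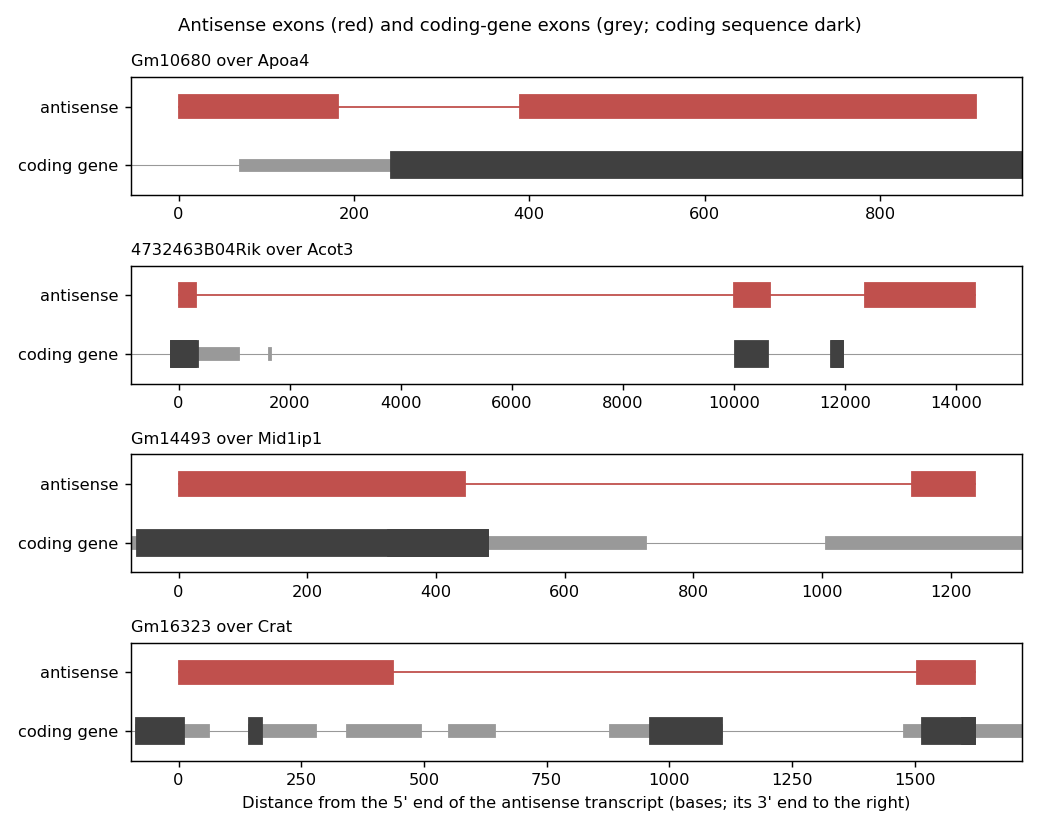
Exons of 4 antisense transcripts (red, upper row) and of their coding partners on the other strand (grey, lower row), by distance in bases from the 5′ end of the antisense transcript. Dark marks coding sequence of any gene on that strand. The antisense intron of Gm10680 lies within exonic sequence of Apoa4, and the exons of Gm14493 lie wholly opposite Mid1ip1 exons (100% of bases). 4732463B04Rik has 31.6% of its bases opposite coding-gene exons, not all of Acot3. Its dark stretches at 10014 to 10616 and 11747 to 11970 bases lie outside Acot3 exons.

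The 2620 transcripts took 3.72 to 4.28% of the reads of the fasted libraries and 4.00 to 4.28% of those of the ad libitum libraries, without the mitochondrial 16S rRNA. A large part was a single transcript of 2 exons whose 5′ end lies opposite the untranslated region of Lars2, the mitochondrial leucyl-tRNA synthetase (NONMMUT071523.2, chr9:123306597-123462555, minus strand). It took 1.58 to 2.58% of the reads in the fasted libraries and 2.04 to 2.32% in the ad libitum libraries, at 21758 ± 6837 CPM in the fasted livers and 22407 ± 1538 CPM in the ad libitum livers (SD, n = 4 each). It did not pass (log2 fold change -0.04 ± 0.20 (SE), adjusted p = 0.912).

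The next most abundant was the transcript over Serpina1c, an antitrypsin protease inhibitor secreted by hepatocytes (NONMMUT087597.1), which was lower in fasted livers. It had 1377, 1509, 1692 and 1857 CPM in fasted replicates 1 to 4, against 2092, 2259, 2496 and 2372 CPM in ad libitum replicates 1 to 4. The groups did not overlap (log2 fold change -0.52 ± 0.13 (SE), adjusted p = 0.0127), and fasted replicate 4, the highest of the fasted libraries, gave -0.31 (adjusted p = 0.458). Serpina1 genes are near-identical copies, so reads of a relative may be counted here. Of the abundant ones, 3 more transcripts did not pass. The one over Srprb, a subunit of the signal recognition particle receptor, was at 996 ± 372 CPM in the fasted livers and 936 ± 349 CPM in the ad libitum livers (SD, n = 4 each) (NONMMUT133432.1, adjusted p = 0.898). The one over the growth-related protein Tpt1 was at 620.4 ± 43.3 CPM in the fasted livers and 677 ± 24.9 CPM in the ad libitum livers (SD, n = 4 each) (NONMMUT021663.2, adjusted p = 0.444). The one over the centrosomal protein Cep85 was at 321 ± 123 CPM in the fasted livers and 319.6 ± 23.6 CPM in the ad libitum livers (SD, n = 4 each) (NONMMUT049977.2, adjusted p = 0.988). Per kilobase of transcript, the Tpt1 one stood at 762 CPM per kilobase in the fasted livers and 832 CPM per kilobase in the ad libitum livers, and the Cep85 one at 237 CPM per kilobase in the fasted livers and 235 CPM per kilobase in the ad libitum livers.

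After the fast, 298 of the 2323 antisense transcripts tested were higher and 231 were lower. The remaining 297 of the 2620 were not past the low-count filter across libraries. In all results here, a rise or fall is one of reads over the transcript's exons, from either strand. A change of the antisense RNA itself was not measured apart from its partner. The 12.8% higher stand beside 9.55% of all 40840 transcripts tested, and the 9.94% lower beside 7.67%. The median log2 fold change was -0.01 in the antisense transcripts and 0.01 in all transcripts. A change of at least 2-fold was found in 167 of the higher (7.19% of those tested, against 5.61% of all transcripts) and 68 of the lower ones (2.93%, against 2.32%). The higher ones came from 252 loci and the lower ones from 169, with 1 locus in both, so most calls are not repeats of the same locus. By separation of the CPM values, 244 (10.5%) had all 4 fasted values above all 4 ad libitum values, against 9.08% of all transcripts, and 272 (11.7%) had them all below, against 10.2%. Against the ad libitum livers, fasted replicate 4 alone had 65 antisense transcripts higher (2.80%, against 2.06% of all transcripts) and 39 lower (1.68%, against 1.23%). The counts rest in part on single libraries: without fasted replicate 4, 349 were lower, and without fasted replicate 1, 186 were higher and 140 lower. Without ad libitum replicate 1, 3 or 4 or fasted replicate 3, 175, 197, 186 and 180 were higher. Matching shares of all transcripts are not given for the fits with a library left out. Whether these moves are particular to the antisense transcripts was not tested.

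**Figure D2:**
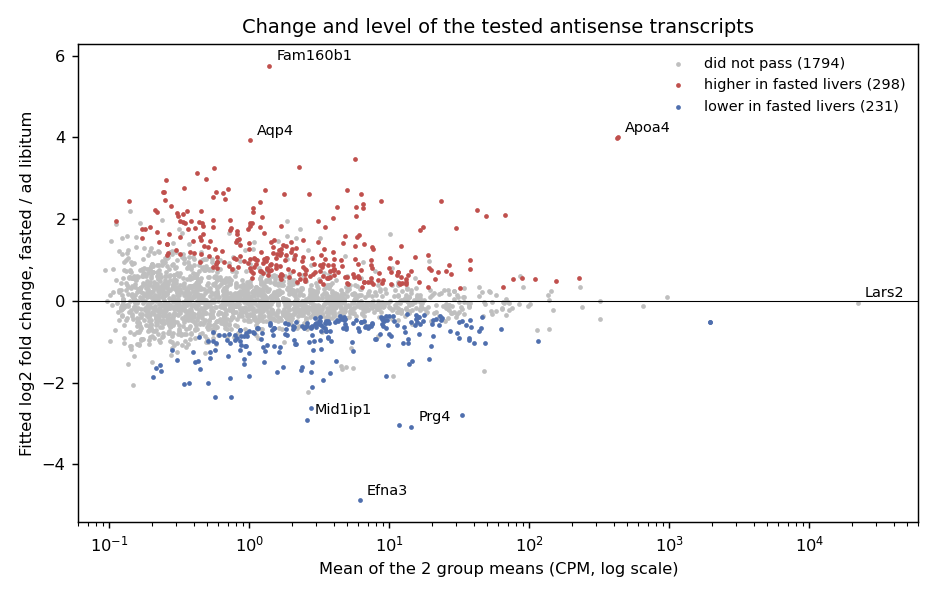
Fitted log2 fold change, fasted over ad libitum, of the 2323 tested antisense transcripts against the mean of both group means in CPM (log scale); each point is a transcript, named by its coding partner where labelled. The 298 higher (red) and 231 lower (blue) transcripts lie at all levels; Fam160b1 is the highest point (5.76) and Efna3 the lowest (-4.88).

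The transcripts over Apoa4, an apolipoprotein of chylomicrons and of the liver's lipoproteins, had the largest rise among transcripts of over 10 CPM, to 809 ± 227 CPM in the fasted livers, against 50.1 ± 5.83 CPM in the ad libitum livers (SD, n = 4 each). Antisense transcripts over it number 2. The one of lowest p (NONMMUT134262.1, chr9:46242620-46243530, minus strand) had 1067, 879, 523 and 766 CPM in fasted replicates 1 to 4, against 45.1, 48.6, 48.2 and 58.6 CPM in ad libitum replicates 1 to 4. The lowest fasted value was thus several times the highest ad libitum value (log2 fold change 4.01 ± 0.21 (SE), adjusted p = 5.76e-07), and fasted replicate 4 alone gave 3.93 (adjusted p = 1.72e-05). The transcript that equals Gm10680 (NONMMUT068954.2, chr9:46242621-46243529, minus strand) differs from it by a base at each end and had 1055, 880.4, 511 and 735 CPM in the fasted livers, against 46.6, 47.7, 44.9 and 59.8 CPM in the ad libitum livers. Its change was 4.00 on the log2 scale (adjusted p = 1.07e-06), and 90% of its bases lie opposite Apoa4 exons. Since the transcripts share nearly all bases, they are 1 measurement and not 2. Reads of the Apoa4 messenger over these bases would count here too.

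Counts in this and the following lists stand beside 9.55% higher and 7.67% lower of all transcripts tested. Reads, from either strand, over all 5 antisense transcripts at genes of fatty acid oxidation rose in fasted livers, over 4 of the 24 listed genes (median log2 fold change 1.51). These are Cpt1a, which forms acylcarnitine for entry into mitochondria, Slc25a20, which carries it across the inner membrane, Crat, which makes acetylcarnitine, and Acsl1, which activates fatty acids with coenzyme A. Over Cpt1a and also over Tesmin, a transcript of 4 exons (NONMMUT105776.1, chr19:3383868-3389210, minus strand) had 106, 111, 131 and 88.0 CPM in fasted replicates 1 to 4, against 24.9, 28.8, 19.9 and 28.1 CPM in ad libitum replicates 1 to 4. Every fasted value was above every ad libitum value (log2 fold change 2.10 ± 0.14 (SE), adjusted p = 1.07e-06), and fasted replicate 4 was the lowest of the fasted ones but gave 1.79 (adjusted p = 2.15e-05). The transcript over Crat that equals Gm16323 (NONMMUT036575.2, chr2:30413716-30415338, plus strand) had 1.28, 1.05, 1.24 and 1.41 CPM in fasted replicates 1 to 4, against 0.300, 0.576, 0.276 and 0.575 CPM in ad libitum replicates 1 to 4. Here fasted replicate 4 was the highest library and the groups did not overlap (log2 fold change 1.51 ± 0.26 (SE), adjusted p = 0.00157). A further transcript over Crat (NONMMUT106809.1) also rose (log2 fold change 1.21 ± 0.27 (SE), adjusted p = 0.00866). Over Slc25a20 (NONMMUT135362.1) levels were low, with 0.702, 0.490, 0.570 and 0.1998 CPM in the fasted livers, against 0.0572, 0.144, 0.197 and 0.0575 CPM in the ad libitum livers. It passed (log2 fold change 2.16 ± 0.49 (SE), adjusted p = 0.00831), but fasted replicate 4 was close to the highest ad libitum library. The transcript over Acsl1 (NONMMUT130576.1) had 18.4, 13.4, 18.1 and 9.85 CPM in the fasted livers, against 6.21, 8.93, 5.81 and 10.1 CPM in the ad libitum livers, so that fasted replicate 4 lay within the ad libitum range (log2 fold change 0.94 ± 0.24 (SE), adjusted p = 0.0283).

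Of 6 tested transcripts over peroxisomal genes and PPARA targets, 5 rose (median log2 fold change 1.65). All 6 lie over Acot3 or Cidec. Transcripts that overlap share reads, so these are not 6 separate measurements. Acot3 is a peroxisomal acyl-CoA thioesterase, and all 3 transcripts over it rose. The one of lowest p has 4 exons (NONMMUT088753.1, chr12:84030221-84053808, minus strand) and had 24.2, 26.5, 25.3 and 32.0 CPM in fasted replicates 1 to 4, against 6.58, 8.72, 5.69 and 9.57 CPM in ad libitum replicates 1 to 4. Fasted replicate 4 was the highest library (log2 fold change 1.82 ± 0.16 (SE), adjusted p = 1.35e-05; fasted replicate 4 alone 2.07 (adjusted p = 3.24e-05)). The transcript that equals 4732463B04Rik (NONMMUT014995.2, chr12:84039469-84053807, minus strand) had 22.9, 24.4, 24.0 and 29.8 CPM in the fasted livers, against 7.27, 9.22, 4.82 and 9.03 CPM in the ad libitum livers (log2 fold change 1.73 ± 0.18 (SE), adjusted p = 0.000105). Most of the middle exon of 4732463B04Rik lies opposite coding sequence of a gene other than Acot3, whose reads would count here too. Acot genes of this cluster are close copies of each other, so reads may be shared between them. Cidec coats lipid droplets and helps them to grow, and 2 of its 3 antisense transcripts rose. Over Cidec, NONMMUT058422.2 (chr6:113428142-113437636, plus strand) had 10.9, 8.37, 7.18 and 11.8 CPM in fasted replicates 1 to 4, against 3.55, 3.98, 2.69 and 4.34 CPM in ad libitum replicates 1 to 4 (log2 fold change 1.39 ± 0.18 (SE), adjusted p = 0.000274), and NONMMUT122852.1 did not pass (log2 fold change 0.49 ± 0.17 (SE), adjusted p = 0.0592). The transcript over Pdk4, the kinase that closes pyruvate dehydrogenase in a fast (NONMMUT121754.1), had too few reads for the test, with 0.0250 to 0.163 CPM in the fasted livers, against 0 to 0.0360 CPM in the ad libitum livers. No member lay over a gene of ketone body synthesis.

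**Figure D3:**
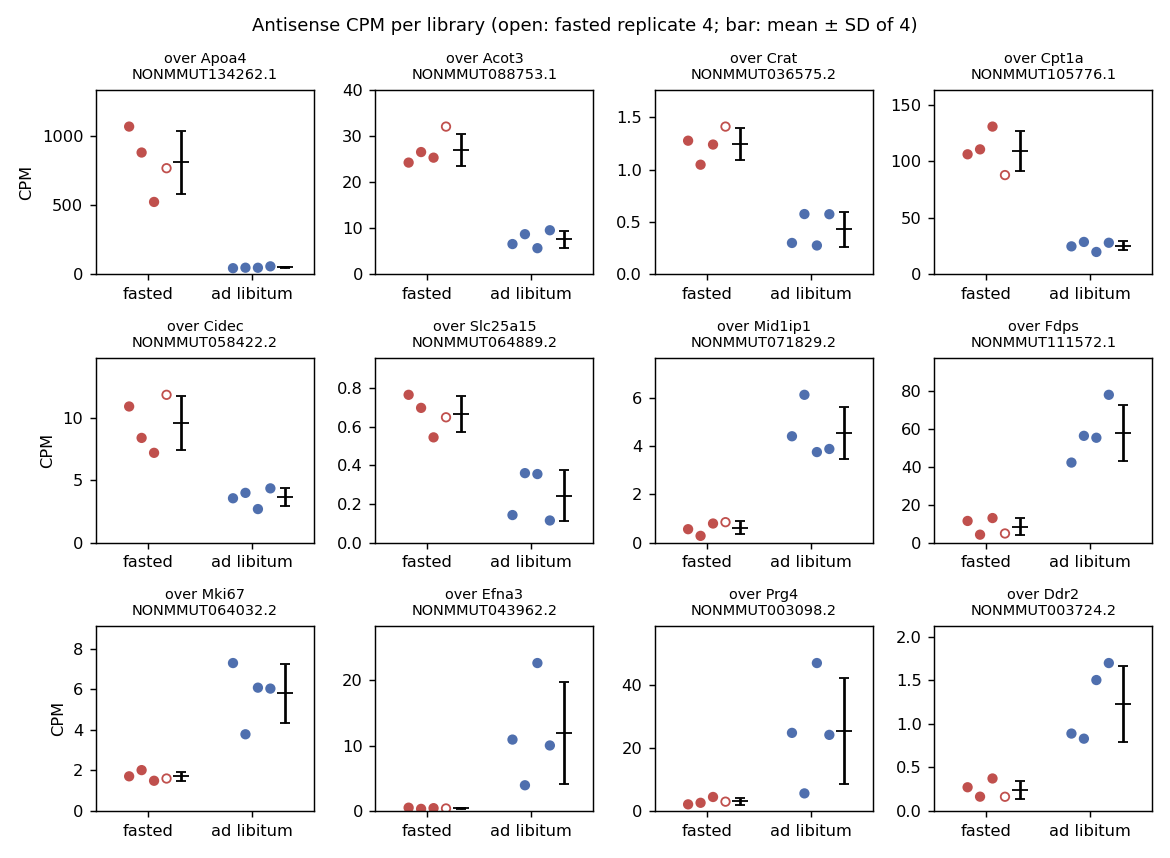
CPM of 12 antisense transcripts in each library, fasted livers to the left (red; open point, fasted replicate 4) and ad libitum livers to the right (blue), with the mean ± SD of 4 libraries as a black bar; each panel has its own axis from 0. The first 6 (over Apoa4, Acot3, Crat, Cpt1a, Cidec and Slc25a15) were higher and the last 6 (over Mid1ip1, Fdps, Mki67, Efna3, Prg4 and Ddr2) lower in fasted livers, with no overlap between the groups in any panel.

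In glucose and amino acid metabolism, 2 of 4 and 1 of 4 tested transcripts rose, and the others did not pass. Mpc1 is a subunit of the carrier that brings pyruvate into mitochondria. The transcript over it with the lowest p (NONMMUT028123.2) had 31.6, 31.6, 42.4 and 32.6 CPM in fasted replicates 1 to 4, against 17.3, 22.3, 16.3 and 19.6 CPM in ad libitum replicates 1 to 4 (log2 fold change 0.87 ± 0.13 (SE), adjusted p = 0.000461). Another over Mpc1, which equals 4930506C21Rik (NONMMUT028132.2), also rose (log2 fold change 0.66 ± 0.20 (SE), adjusted p = 0.0383), and NONMMUT028131.2 did not pass (adjusted p = 0.0823). Over Gpd1, the cytosolic glycerol-3-phosphate dehydrogenase, the groups overlapped at 15.2 ± 3.57 CPM in the fasted livers and 15.4 ± 3.69 CPM in the ad libitum livers (SD, n = 4 each) (NONMMUT024990.2, adjusted p = 0.968). Slc25a15 carries ornithine into mitochondria for the urea cycle. Its transcript (NONMMUT064889.2) had 0.766, 0.698, 0.546 and 0.649 CPM in the fasted livers, against 0.143, 0.360, 0.355 and 0.115 CPM in the ad libitum livers (log2 fold change 1.49 ± 0.36 (SE), adjusted p = 0.0125), and the call was lost without ad libitum replicate 1 (log2 fold change 1.28, adjusted p = 0.051). The 3 transcripts over Nags, which makes the activator of the urea cycle, did not pass, with 4.79 ± 0.704 CPM in the fasted livers and 4.64 ± 0.551 CPM in the ad libitum livers (SD, n = 4 each) for NONMMUT085790.1 (adjusted p = 0.872).

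Of 4 tested antisense transcripts over genes of cholesterol synthesis, 3 fell and 1 did not pass. Fdps makes farnesyl diphosphate, and the transcript of 7 exons over it and over Rusc1 (NONMMUT111572.1, chr3:89091819-89095684, plus strand) had 11.4, 4.22, 12.97 and 4.85 CPM in fasted replicates 1 to 4, against 42.2, 56.3, 55.3 and 77.9 CPM in ad libitum replicates 1 to 4. Even the highest fasted value was below the lowest ad libitum one (log2 fold change -2.79 ± 0.45 (SE), adjusted p = 0.00937), and the call was lost with the replicate number as a block (adjusted p = 0.0595). Over Lss, lanosterol synthase, NONMMUT006251.2 had 2.30, 1.31, 3.15 and 1.82 CPM in the fasted livers, against 2.43, 2.34, 3.04 and 2.99 CPM in the ad libitum livers and did not pass (log2 fold change -0.34 ± 0.23 (SE), adjusted p = 0.342).

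In fatty acid and triglyceride synthesis, both transcripts over Mid1ip1 fell, and the one over Elovl6 did not pass. Mid1ip1 helps acetyl-CoA carboxylase to form active polymers. Its transcript Gm14493 (NONMMUT071829.2, chrX:10717473-10718710, minus strand), which is shown above, had 0.559, 0.282, 0.793 and 0.849 CPM in fasted replicates 1 to 4, against 4.41, 6.12, 3.75 and 3.88 CPM in ad libitum replicates 1 to 4. All fasted libraries, fasted replicate 4 included, were under 1 CPM (log2 fold change -2.90 ± 0.31 (SE), adjusted p = 0.00025; fasted replicate 4 alone -2.42 (adjusted p = 0.0205)). The second transcript (NONMMUT136714.1) overlaps it and changed by -2.62 (adjusted p = 0.00148). Elovl6 lengthens fatty acids, and its antisense transcript was at 0.115 ± 0.0823 CPM in the fasted livers and 0.130 ± 0.112 CPM in the ad libitum livers (SD, n = 4 each) (NONMMUT114143.1, adjusted p = 0.949).

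**Figure D4:**
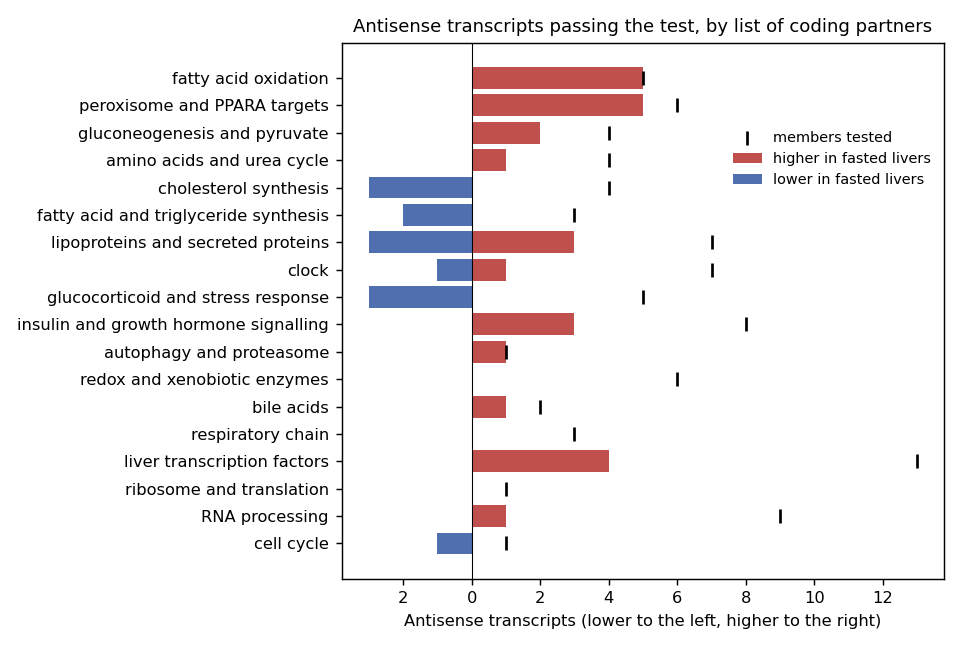
Number of antisense transcripts higher in fasted livers (red, to the right) and lower (blue, to the left) at an adjusted p under 0.05, for each list of coding partners; the black tick marks the number tested. In fatty acid oxidation 5 of 5 rose and in cholesterol synthesis 3 of 4 fell, while 0 of 6 passed over redox and xenobiotic enzymes. Of all transcripts tested, 9.55% were higher and 7.67% lower. Reads are from either strand, and transcripts that overlap share reads.

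Secreted proteins of the liver were divided: of 7 tested transcripts 3 rose, 2 over Apoa4 and 1 over Ahsg, and 3 fell, 2 over Prg4 and 1 over Trf. The 2 over Apoa4 are 1 measurement, as given above, and the 2 over Prg4 overlap. Prg4 is a secreted mucin-like proteoglycan (lubricin), and the transcript over its coding sequence (NONMMUT003098.2, chr1:150454717-150456281, plus strand) had 2.09, 2.59, 4.44 and 2.95 CPM in fasted replicates 1 to 4, against 24.9, 5.58, 47.1 and 24.2 CPM in ad libitum replicates 1 to 4. Ad libitum replicate 2 was far below the other ad libitum libraries yet above every fasted one (log2 fold change -3.08 ± 0.66 (SE), adjusted p = 0.0263). The call was lost with the replicate block (adjusted p = 0.0639), and on leaving out ad libitum replicate 1 or 4 (0.0605 and 0.0591) or fasted replicate 1, 2 or 3 (0.0807, 0.0766 and 0.0587). The other transcript over Prg4 (NONMMUT003097.2) overlaps it and changed by -3.04 (adjusted p = 0.0287). Trf, transferrin, carries iron in blood. The transcript over it (NONMMUT133433.1) had 2.76, 3.42, 2.03 and 2.02 CPM in the fasted livers, against 4.61, 3.96, 7.50 and 4.34 CPM in the ad libitum livers (log2 fold change -0.98 ± 0.23 (SE), adjusted p = 0.0144), a call lost with library totals in place of TMM (adjusted p = 0.0585). Ahsg is the carrier protein fetuin-A. Its transcript (NONMMUT025946.2) had 10.5, 12.7, 16.6 and 3.35 CPM in fasted replicates 1 to 4, against 2.42, 1.68, 2.35 and 2.53 CPM in ad libitum replicates 1 to 4 (log2 fold change 2.26 ± 0.48 (SE), adjusted p = 0.0238), and fasted replicate 4 was much nearer to the ad libitum livers than to the other fasted ones. Over the fibrinogen chain gene Fgg, NONMMUT113524.1 had 106 ± 39.0 CPM in the fasted livers and 170.4 ± 64.9 CPM in the ad libitum livers (SD, n = 4 each) and did not pass (adjusted p = 0.312).

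Over stress-response genes 3 of 5 transcripts fell, all of them over Gadd45a, a growth arrest gene induced by DNA damage. The one of lowest p has 12 exons (NONMMUT122413.1, chr6:67036600-67080655, plus strand) and had 0.702, 0.505, 0.446 and 0.699 CPM in fasted replicates 1 to 4, against 1.46, 0.991, 1.26 and 1.38 CPM in ad libitum replicates 1 to 4. The groups did not overlap (log2 fold change -1.11 ± 0.22 (SE), adjusted p = 0.00421). Of the shorter ones, NONMMUT057278.2 and NONMMUT057280.2, which match E230016M11Rik, changed by -1.67 (adjusted p = 0.00575) and -0.98 (adjusted p = 0.023). The transcript over Ddit3, a factor of the unfolded protein response, did not pass (NONMMUT008075.2, 0.224 ± 0.108 CPM in the fasted livers and 0.188 ± 0.0545 CPM in the ad libitum livers (SD, n = 4 each), adjusted p = 0.776). Over Mki67, which coats chromosomes of dividing cells, the 1 transcript of the cell cycle list (NONMMUT064032.2, chr7:135694243-135700217, plus strand) fell. It had 1.71, 2.01, 1.49 and 1.599 CPM in fasted replicates 1 to 4, against 7.30, 3.78, 6.08 and 6.04 CPM in ad libitum replicates 1 to 4 (log2 fold change -1.76 ± 0.18 (SE), adjusted p = 3.44e-05), and fasted replicate 4 alone gave -1.86 (adjusted p = 0.00401).

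Of 7 tested transcripts over clock genes 1 rose and 1 fell. Rora is a nuclear receptor that raises Bmal1, and its transcript (NONMMUT134624.1) had 1.82, 1.95, 2.13 and 0.962 CPM in fasted replicates 1 to 4, against 0.801, 0.630, 0.908 and 1.09 CPM in ad libitum replicates 1 to 4. Fasted replicate 4 lay inside the ad libitum range (log2 fold change 1.00 ± 0.25 (SE), adjusted p = 0.0144), and the call was lost without ad libitum replicate 1 (adjusted p = 0.0552). Bhlhe40 is a repressor in the clock. The transcript over it (NONMMUT124255.1) had 0.263, 0.0891, 0.310 and 0.187 CPM in the fasted livers, against 0.758, 0.702, 0.632 and 0.302 CPM in the ad libitum livers (log2 fold change -1.50 ± 0.41 (SE), adjusted p = 0.021), lost without ad libitum replicate 1, 2 or 3 or fasted replicate 2 (adjusted p = 0.0749, 0.0592, 0.0534 and 0.0501). The 4 tested transcripts over Cry2 and Tef did not pass.

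Insulin and growth hormone signalling had 3 rises among 8 tested transcripts, and the other 5 did not pass. Over Irs2, the docking protein of the insulin receptor, NONMMUT128067.1 had 2.09, 2.18, 2.18 and 1.80 CPM in fasted replicates 1 to 4, against 1.29, 1.55, 1.03 and 1.38 CPM in ad libitum replicates 1 to 4 (log2 fold change 0.65 ± 0.16 (SE), adjusted p = 0.0151). Foxo1 is the factor that insulin keeps out of the nucleus, and its antisense transcript Gm20402 (NONMMUT043034.2, chr3:52268435-52269435, minus strand), whose splice sites are shown above, had 9.79, 9.35, 11.9 and 9.37 CPM in fasted replicates 1 to 4, against 7.47, 6.05, 8.22 and 8.06 CPM in ad libitum replicates 1 to 4. The groups did not overlap, but the change was small (log2 fold change 0.44 ± 0.12 (SE), adjusted p = 0.027), and its call was lost with library totals in place of TMM (adjusted p = 0.0739), as it was on leaving out ad libitum replicate 1, 2 or 4 (0.0755, 0.0778 and 0.055) or fasted replicate 1 or 3 (0.053 and 0.0871). The third rise was over Mtor, the growth kinase (NONMMUT117748.1), at 0.327, 0.371, 0.434 and 0.0749 CPM in the fasted livers, against 0.0429, 0.144, 0.0592 and 0.101 CPM in the ad libitum livers (log2 fold change 1.80 ± 0.56 (SE), adjusted p = 0.0389), with fasted replicate 4 inside the ad libitum range. Gabarapl1 is one of the proteins that tag autophagosomes. Over it, NONMMUT124499.1 had 116, 139, 148 and 114 CPM in the fasted livers, against 96.3, 93.4, 66.9 and 97.9 CPM in the ad libitum livers (log2 fold change 0.54 ± 0.13 (SE), adjusted p = 0.0139).

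Transcripts over liver transcription factors rose in 4 of 13 cases, and the other 9 did not pass. Hnf4a is the nuclear receptor that maintains hepatocyte identity. Its antisense transcript has 235 bases in 2 exons and both ends in coding sequence (NONMMUT110086.1, chr2:163564164-163566230, minus strand), and had 56.8, 53.8, 57.1 and 32.5 CPM in fasted replicates 1 to 4, against 27.3, 26.7, 19.4 and 25.9 CPM in ad libitum replicates 1 to 4. Fasted replicate 4 was between the other fasted livers and the ad libitum livers (log2 fold change 1.01 ± 0.18 (SE), adjusted p = 0.00286; fasted replicate 4 alone 0.39 (adjusted p = 0.274)). Prox1 is a homeobox factor of hepatocytes and lymphatic vessels. Both of its transcripts rose, with 4.65, 4.78, 5.69 and 6.00 CPM in fasted replicates 1 to 4, against 3.23, 3.57, 2.86 and 3.35 CPM in ad libitum replicates 1 to 4 for NONMMUT004321.2 (log2 fold change 0.70 ± 0.13 (SE), adjusted p = 0.00223), where fasted replicate 4 was the highest library. The fourth rise was over Tox (NONMMUT046053.2, log2 fold change 1.46 ± 0.35 (SE), adjusted p = 0.012).

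In the other lists few transcripts passed. Over bile acid genes, the one at Slc27a5, which activates bile acids for conjugation (NONMMUT124703.1), had 93.1, 111, 143 and 74.1 CPM in fasted replicates 1 to 4, against 73.3, 75.5, 72.6 and 64.6 CPM in ad libitum replicates 1 to 4. Fasted replicate 4 was inside the ad libitum range (log2 fold change 0.56 ± 0.16 (SE), adjusted p = 0.0356), and the call was lost without any 1 of the libraries except fasted replicate 4 (adjusted p from 0.0506 to 0.102). The transcript over the exporter gene Abcc2 did not pass (NONMMUT034809.2, adjusted p = 0.0725), but did without fasted replicate 4 (adjusted p = 0.0121), with no low-count filter (0.0134) and with at least 1 CPM in 4 libraries (0.0457). Over RNA-processing genes 1 of 9 rose, at the splicing regulator Rbm5 (NONMMUT133509.1, 4.47, 4.11, 4.64 and 2.97 CPM in the fasted livers, against 2.175, 2.77, 2.80 and 2.95 CPM in the ad libitum livers; log2 fold change 0.60 ± 0.16 (SE), adjusted p = 0.0179), a call lost without ad libitum replicate 1 or fasted replicate 1 or 3 (adjusted p = 0.0692, 0.0582 and 0.0581). The transcript over the splicing factor Srsf5 was at 52.4 ± 9.31 CPM in the fasted livers and 62.2 ± 10.7 CPM in the ad libitum livers (SD, n = 4 each) (NONMMUT088698.1, adjusted p = 0.268). In edgeR's test 0 of 6 passed over redox and xenobiotic enzymes, 0 of 3 over the respiratory chain and 0 of 1 over translation genes. At an unadjusted p under 0.05 these numbers were 1, 0 and 0, and 0 passed in DESeq2 or limma-voom. The most abundant of these lay over the Ugt1a cluster of glucuronidation enzymes (NONMMUT001921.2, 257 ± 41.3 CPM in the fasted livers and 204 ± 42.2 CPM in the ad libitum livers (SD, n = 4 each), adjusted p = 0.147) and passed without ad libitum replicate 2 (adjusted p = 0.0465) and with no low-count filter (0.00679). The transcripts over Aldh1a1 (NONMMUT105957.1, adjusted p = 0.712), Sdhb (NONMMUT117552.1, adjusted p = 0.241), Cycs (NONMMUT122232.1, adjusted p = 0.763) and Eif4ebp1 (NONMMUT065069.2, adjusted p = 0.241) did not pass.

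Antisense transcripts over markers of other cell types were few. Over Stab2, a scavenger receptor of sinusoidal endothelium, NONMMUT080612.1 had 98, 120, 96 and 16 reads in fasted replicates 1 to 4 and 10, 2, 0 and 10 reads in ad libitum replicates 1 to 4. It passed (log2 fold change 3.13 ± 0.69 (SE), adjusted p = 0.0131), but not with the replicate block (adjusted p = 0.0818) nor in fasted replicate 4 alone (0.506). Over Reln, a secreted protein of stellate cells in liver, the transcript Gm10475 (NONMMUT051426.2) had 43.3, 49.6, 56.6 and 9.09 CPM in fasted replicates 1 to 4, against 6.35, 10.4, 5.29 and 6.96 CPM in ad libitum replicates 1 to 4. Fasted replicate 4 lay inside the ad libitum range (log2 fold change 2.45 ± 0.59 (SE), adjusted p = 0.0368). The call was lost without any 1 of the libraries except fasted replicate 4 (adjusted p from 0.061 to 0.0925), with the replicate block (0.14) and with library totals in place of TMM (0.0534). Another transcript over Reln did not pass (NONMMUT051425.2, adjusted p = 0.655). Summed over all transcripts with an end in an exon of a marker gene, on either strand, hepatocyte markers (3 of 8 genes had such transcripts) were at 724 to 929 CPM in the fasted livers and 335 to 477 CPM in the ad libitum livers. The hepatocyte markers Alb, Apoa1, Apob, Cyp2e1 and Serpina1a had no such transcript. Stellate markers (6 of 6) were at 29.1 to 77.1 CPM in the fasted livers and 22.7 to 39.7 CPM in the ad libitum livers, and Kupffer cell markers (2 of 6) at 3.41 to 4.00 CPM in the fasted livers and 4.02 to 5.49 CPM in the ad libitum livers. Endothelial markers (2 of 6) were at 0.1998 to 1.22 CPM in the fasted livers and 0 to 0.258 CPM in the ad libitum livers, and adipose markers (2 of 4, among them Cidec) at 16.9 to 25.4 CPM in the fasted livers and 5.85 to 10.8 CPM in the ad libitum livers. Cholangiocyte markers (4 of 5) were at 0.818 to 1.30 CPM in the fasted livers and 0.865 to 1.97 CPM in the ad libitum livers. Lymphocyte and neutrophil markers (1 of 4 each) stayed below 0.3 CPM in every library, and the erythroid and pancreatic acinar lists had no such transcript. These sums hold transcripts named above. Gm10475 over Reln gave 9.09 to 56.6 CPM of the fasted stellate sums and 5.29 to 10.4 CPM of the ad libitum ones. The Stab2 transcript gave 0.1998 to 1.19 CPM of the fasted endothelial sums and 0 to 0.144 CPM of the ad libitum ones. The 3 Cidec transcripts had means of 9.56, 8.84 and 2.98 CPM in the fasted livers. These sums are thus not levels of whole marker sets. The part of the cell makeup in the results was not tested.

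The largest rises and falls lay for the most part over genes outside these lists. Among transcripts of at least 1 CPM in the higher group and separated groups, the largest rise was over Fam160b1 (NONMMUT106407.1, chr19:57389421-57397303, minus strand), with 448, 514, 270 and 12 reads in fasted replicates 1 to 4 and 4, 4, 4 and 0 reads in ad libitum replicates 1 to 4. These are 3.57, 3.82, 3.35 and 0.150 CPM in the fasted livers, against 0.0572, 0.0720, 0.0790 and 0 CPM in the ad libitum livers, so fasted replicate 4 was close to the ad libitum libraries (log2 fold change 5.76 ± 1.24 (SE), adjusted p = 0.0262; fasted replicate 4 alone 1.58 (adjusted p = 0.255)). The call was lost in limma-voom (adjusted p = 0.477) and without ad libitum replicate 1, 2, 3 or 4 (adjusted p from 0.0649 to 0.0749). With fasted replicate 1, 2 or 3 left out it was not past the low-count filter. Next to Apoa4 came Aqp4, a water channel (NONMMUT102947.1, 1.78, 2.82, 2.21 and 0.724 CPM in the fasted livers, against 0.0859, 0.1801, 0.118 and 0.115 CPM in the ad libitum livers; log2 fold change 3.93 ± 0.44 (SE), adjusted p = 0.000153), which also passed in fasted replicate 4 alone, at 2.55 (adjusted p = 0.00139). A transcript of 21 exons over 1810037I17Rik (NONMMUT114078.1) had 11.5, 15.04, 12.9 and 2.173 CPM in fasted replicates 1 to 4, against 0.601, 1.98, 0.553 and 0.632 CPM in ad libitum replicates 1 to 4 (log2 fold change 3.48 ± 0.76 (SE), adjusted p = 0.0281). It failed the test without ad libitum replicate 1, 3 or 4 or fasted replicate 1, 2 or 3 (adjusted p from 0.0653 to 0.0783).

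Fasted replicate 4 stood nearer to the ad libitum livers in the other large rises as well. Over Rundc3a (NONMMUT012140.2), values were 10.1, 9.83, 12.1 and 2.27 CPM in the fasted livers, against 1.07, 1.21, 1.70 and 1.24 CPM in the ad libitum livers (log2 fold change 2.73 ± 0.53 (SE), adjusted p = 0.0174, lost without ad libitum replicate 1 or 4 at 0.0534 and 0.0505). Over Hmcn2, a hemicentin of the extracellular matrix (NONMMUT108932.1), they were 1.31, 1.22, 1.41 and 0.512 CPM in the fasted livers, against 0.229, 0.108, 0.237 and 0.144 CPM in the ad libitum livers (log2 fold change 2.63 ± 0.36 (SE), adjusted p = 0.000271). Over Fam163b (NONMMUT036403.2), they were 1.98, 2.33, 3.10 and 0.662 CPM in the fasted livers, against 0.315, 0.612, 0.158 and 0.402 CPM in the ad libitum livers (log2 fold change 2.43 ± 0.51 (SE), adjusted p = 0.0149, lost without ad libitum replicate 1 at 0.0537). Over Sema4g, a semaphorin (NONMMUT106247.1), the fasted livers had 13.1, 11.1, 16.6 and 2.06 CPM and the ad libitum livers 1.67, 1.68, 1.88 and 1.74 CPM (log2 fold change 2.62 ± 0.61 (SE), adjusted p = 0.034), a call lost without any 1 of the libraries except fasted replicate 4 (adjusted p from 0.0759 to 0.0857) and with the replicate block (0.125). Fasted replicate 4 was the lowest fasted library in each of these.

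In the named large falls all 4 fasted values lie below all 4 ad libitum values, which the naming rule required. Over Efna3, an ephrin ligand of Eph receptors (NONMMUT043962.2, chr3:89314386-89319727, plus strand), a transcript of 4 exons had 0.495, 0.312, 0.422 and 0.375 CPM in fasted replicates 1 to 4, against 10.9, 3.93, 22.6 and 10.0 CPM in ad libitum replicates 1 to 4. No fasted library reached 0.5 CPM and the ad libitum values spread widely (log2 fold change -4.88 ± 0.60 (SE), adjusted p = 0.00334). Ddr2 is a receptor kinase for collagen, and the transcript over its untranslated region that equals 3110045C21Rik (NONMMUT003724.2, chr1:169969409-169972396, plus strand) had 0.271, 0.163, 0.372 and 0.162 CPM in fasted replicates 1 to 4, against 0.887, 0.828, 1.501 and 1.70 CPM in ad libitum replicates 1 to 4 (log2 fold change -2.35 ± 0.33 (SE), adjusted p = 0.000341). Over the retinol dehydrogenase gene Rdh11 (NONMMUT087331.1), values were 1.38, 1.17, 0.855 and 0.762 CPM in the fasted livers, against 3.15, 5.78, 4.90 and 4.51 CPM in the ad libitum livers (log2 fold change -2.12 ± 0.22 (SE), adjusted p = 4.9e-05). Pik3r3 is a regulatory subunit of phosphoinositide 3-kinase, and its antisense transcript (NONMMUT048833.2) had 1.58, 1.17, 1.34 and 1.47 CPM in the fasted livers, against 4.09, 6.20, 6.75 and 4.40 CPM in the ad libitum livers (log2 fold change -1.94 ± 0.18 (SE), adjusted p = 1.05e-05). The transcript over Slc44a3, a choline transporter-like protein, had 0.367, 0.149, 0.248 and 0.475 CPM in the fasted livers, against 0.973, 1.51, 0.790 and 1.26 CPM in the ad libitum livers (NONMMUT045029.2, log2 fold change -1.89 ± 0.33 (SE), adjusted p = 0.00175). In fasted replicate 4 alone, the log2 fold change was -2.91 over Ddr2, -2.58 over Rdh11, -1.86 over Pik3r3, -4.98 over Efna3 and -1.26 over Slc44a3.

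The larger rises and falls were also read in fasted replicate 4 and in the other fasted livers apart. Of the 167 transcripts higher by at least 2-fold, the median log2 difference from the ad libitum mean was 1.59 in fasted replicates 1 to 3 and 0.71 in fasted replicate 4. Of the 68 lower by at least 2-fold, it was -1.34 in fasted replicates 1 to 3 and -1.23 in fasted replicate 4. In fasted replicate 4, 70 of the 167 were less than 0.5 above the ad libitum mean on the log2 scale, and 3 of the 68 were less than 0.5 below it. Those 70 had a median length of 397.5 bases, and 65.7% had an end in coding sequence, against 728 bases and 55.7% in the 97 others that rose and 1453 bases and 39.7% in the 68 that fell. These are descriptions of transcripts chosen with all 8 libraries, made after the values were seen, with no test of the difference. The same values for all transcripts changed at least 2-fold are not given here. Fasted replicate 4 also lay apart over all tested transcripts, so these are not shown to be traits of antisense transcripts.

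**Figure D5:**
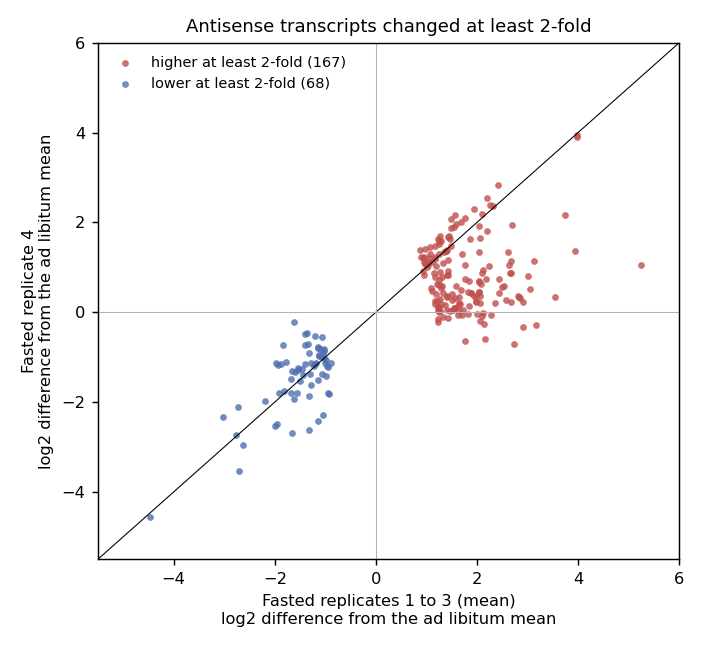
Log2 difference from the ad libitum mean (CPM plus 0.05) in fasted replicate 4 (vertical) against the mean of fasted replicates 1 to 3 (horizontal), for the 167 antisense transcripts higher (red) and the 68 lower (blue) by at least 2-fold; the diagonal marks equal differences. The lower ones lie along the diagonal (medians -1.23 and -1.34), and many of the higher ones lie near 0 in fasted replicate 4 (medians 0.71 and 1.59).

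Among transcripts that equal a GENCODE one, those of lowest p also included 1110002L01Rik, which lies over the untranslated regions of Kif3c, a kinesin, and Asxl2, a Polycomb-linked protein. Both of its forms fell. NONMMUT087843.1 had 2.39, 2.50, 2.78 and 2.40 CPM in the fasted livers, against 4.61, 4.72, 4.62 and 5.09 CPM in the ad libitum livers (log2 fold change -0.92 ± 0.12 (SE), adjusted p = 0.00014). NONMMUT087842.1 had 5.68, 5.85, 6.20 and 7.04 CPM in the fasted livers, against 10.8, 9.98, 10.9 and 11.6 CPM in the ad libitum livers (log2 fold change -0.81 ± 0.11 (SE), adjusted p = 0.000216). The ranges were narrow and did not overlap. Gm16573 over Parp4, a vault-associated ADP-ribosyltransferase (NONMMUT021027.2, chr14:56610788-56620513, minus strand), had 8.34, 8.62, 12.03 and 10.2 CPM in fasted replicates 1 to 4, against 4.11, 4.93, 4.96 and 5.49 CPM in ad libitum replicates 1 to 4 (log2 fold change 1.01 ± 0.14 (SE), adjusted p = 0.000254). Fasted replicate 4 alone gave 1.06 (adjusted p = 0.00555), in the middle of the fasted range. The antisense entry over Txnip, a thioredoxin-binding protein regulated by glucose, has 1 exon and is no member.

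The share of transcripts that passed varied with where they lay and how deeply they were read. Of all transcripts tested, 9.55% were higher and 7.67% lower. With an end in coding sequence alone, 16.4% were higher and 9.02% lower of 776 tested. With an end in an untranslated region alone, 10.2% were higher and 11.4% lower of 1064. By the end inside the opposite exon, 12.7% were higher and 11.5% lower for the 3′ end, 12.6% and 8.28% for the 5′ end, and 13.6% and 12.1% for both. Of the transcripts that equal a GENCODE one, 9.85% were higher and 9.07% lower, and of the others 13.7% and 10.2%. The share that passed in either direction was 5.21% with under 200 reads over the 8 libraries, 19.3% from 200 to under 1000, 33.3% from 1000 to under 10000 and 37.3% from 10000 on. The share thus went with read depth. Shares of all transcripts by read depth are not given, so this is not shown to be a trait of antisense transcripts. Differences between these classes were not tested.

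The level of an antisense transcript was also set against that of a catalogue transcript of the coding strand. This was a log2 ratio per library to the most read such transcript whose span overlaps it, called the sense transcript. The sense transcript is an entry of the same catalogue of non-coding RNAs and not the annotated messenger of the partner. Overlap of exons was not required. Of 764 such pairs in all, 4 had a ratio that differed between the groups in limma's test (0.524%), and of the 594 pairs with a member 3 did. An unadjusted p under 0.05 was found in 117 of the 594 (19.7%). The median log2 ratio lay between -0.89 and -0.81 in the fasted livers and between -0.90 and -0.87 in the ad libitum livers. Since reads were not separated by strand, a change on 1 strand appears on both where exons overlap, and the ratio reads only the exons that differ.

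Those 3 pairs lie over Ddr2, Rbks and Lss, and their sense transcripts are catalogue entries, not the messengers of these genes. Over Ddr2 the ratio of NONMMUT076761.1 to NONMMUT003729.2 was -2.97, -3.93, -4.15 and -3.86 on the log2 scale in fasted replicates 1 to 4, against -1.82, -1.84, -1.42 and -1.35 in ad libitum replicates 1 to 4 (difference -2.12 ± 0.27 (SE), limma adjusted p = 0.0197). The antisense transcript fell (log2 fold change -2.36 ± 0.31 (SE), adjusted p = 0.000191), while the sense one changed by -0.27 (edgeR adjusted p = 0.226). Rbks is ribokinase, and the ratio of NONMMUT051796.2 to NONMMUT051795.2 was lower in fasted livers by -0.95 ± 0.13 (limma adjusted p = 0.0197). There the sense transcript rose (log2 fold change 0.59, edgeR adjusted p = 0.00564), and the antisense one did not pass (log2 fold change -0.34 ± 0.21 (SE), adjusted p = 0.281). Over Lss the ratio of NONMMUT006251.2 to NONMMUT006253.2 was -1.70, -1.77, -1.41 and -1.89 in fasted replicates 1 to 4, against -3.10, -3.11, -2.80 and -3.31 in ad libitum replicates 1 to 4 (difference 1.39 ± 0.16, limma adjusted p = 0.0187). The sense transcript there had 7.50, 4.48, 8.36 and 6.79 CPM in the fasted livers and 20.96, 20.2, 21.2 and 29.7 CPM in the ad libitum livers, and fell (log2 fold change -1.77, edgeR adjusted p = 0.000154). The number of such pairs rests on single libraries, and was 0 with ad libitum replicate 2 or 4 or fasted replicate 2 left out. It was 1 with ad libitum replicate 3 left out, 55 with fasted replicate 4 left out and 0 with the replicate block.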

How the data were processed

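Per the submitters' processing notes, the reads were handled with bcl2fastq 2.17 and BWA on mm10; the counting tool, the use of strand and the treatment of multiply mapped reads are not given in the sources here. Per the file headers, the deposited table gives raw read counts and RPKM per library and, for each transcript, length, exon number and a coding score (CNCI, an other-type value of no library). The authors' counts were used, with 0 in place of empty cells. The deposited RPKM values, which are 0 in those cells, served only for that check. The mitochondrial 16S rRNA, which had no reads in ad libitum replicate 3 only, was dropped. Whether each empty cell is a true 0 cannot be told from the RPKM values. Starts in the table count from 0 and are given from 1.

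Ends were placed in exons of GENCODE mouse release 21 (same build). The test of fasted against ad libitum livers was that of edgeR 4.0.16 in R 4.3.3 (quasi-likelihood F test, robust, two-sided, filterByExpr, TMM) on all transcripts. Antisense to sense ratios were tested with limma 3.58.1 on log2 CPM (prior count 0.5), adjusted over all 764 pairs. In simulated data for this comparison on 40840 transcripts, 44% of the 2-fold rises passed, 88% of the 4-fold rises, 6% of the 1.5-fold rises and 30% of the falls to a fold of 0.5, with 9 false calls. The simulation did not include a technical difference common to several libraries.

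The members, the 29 lists of partner genes and cell markers, the tests and the naming rule were chosen with earlier results of these data known. Transcripts are named where they are among the 8 largest rises or 8 largest falls (passing, at least 1 CPM in the higher group, groups apart, 1 per partner), the 6 most abundant, the lowest p over up to 2 partners per list, the 6 of lowest p that match GENCODE, or over Txnip or Apoa4. Further members of the lists are named beside them, chosen after their values were seen, and some results are not reported here. Alternatives were DESeq2 1.42.0, limma-voom, RLE scaling, library totals without TMM, other count filters, the replicate block, each library left out, fasted replicate 4 alone, and stricter membership rules.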

Additional observations from a re-analysis of the deposited data

Results flagged for a closer look

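Within groups of 4 libraries, 1 library lay far from the other 3 in 5 of 122 groups of values checked, by the ratio of its gap to the group's range (Dixon's critical value at 95%); chance gives about 1 in 20. Over Fam160b1 (NONMMUT106407.1), fasted replicate 4 was at 0.150 CPM, against 3.35 to 3.82 CPM in the other fasted libraries. Over Hnf4a (NONMMUT110086.1), fasted replicate 4 was at 32.5 CPM, against 53.8 to 57.1 CPM in the other fasted libraries. Over Mpc1 (NONMMUT028123.2), fasted replicate 3 was at 42.4 CPM, against 31.6 to 32.6 CPM. Among ad libitum livers, replicate 2 was at 1.98 CPM over 1810037I17Rik (NONMMUT114078.1), against 0.553 to 0.632 CPM in the others, and replicate 3 was at 66.9 CPM over Gabarapl1 (NONMMUT124499.1), against 93.4 to 97.9 CPM.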

How the results depend on the processing

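Of the 58 transcripts taken by the naming rule, 43 passed, and 18 of these kept their call and direction under every alternative in which they were tested (26 when fasted replicate 4 alone is set aside). Calls lost in fasted replicate 4 alone rest on 1 fasted library and do not show that a change is absent. Apart from that fit, calls among the 43 were lost most often with ad libitum replicate 1 (13) or 4 (9) left out and in limma-voom (9). Those in limma-voom were over Fam160b1, 1810037I17Rik, Rundc3a, Sema4g, Fam163b, Prg4, Slc27a5, Stab2 and Reln. None of the 43 was lost in DESeq2, with RLE scaling, with no low-count filter or without fasted replicate 4. With at least 1 CPM in 4 libraries, 33 of the 43 were tested and kept their call, and 10 were filtered out.

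The number higher was 298 and was 65 in fasted replicate 4 alone, 185 in limma-voom, 51 among transcripts that match GENCODE and 175 to 427 with 1 library left out. The number lower was 231 and was 39 in fasted replicate 4 alone, 47 among those that match GENCODE, 145 with 1 transcript per locus and 140 to 349 with 1 library left out. Together 529 changed, against 104 in fasted replicate 4 alone, 98 among those that match GENCODE and 326 to 776 with 1 library left out. GENCODE matches and 1 transcript per locus also leave fewer transcripts to count, and the cause of these moves was not tested. In limma-voom the split turned, to 185 higher and 221 lower. Apart from fasted replicate 4 alone, shares of all transcripts are not given for these alternatives. Whether the moves and the turned split are particular to the antisense transcripts was therefore not tested. With library totals in place of TMM, 228 were higher and 166 lower, and with no low-count filter 406 and 283. Without that filter the median log2 fold change of all transcripts was 0.16. Pairs with a changed ratio numbered 3, against 0 with the replicate block (114 at an unadjusted p under 0.05) and 0 to 55 with 1 library left out.

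The replicate numbers did not pair the libraries: same-numbered fasted and ad libitum libraries correlated at 0.0003 to 0.0397 in 3 cases and at -0.001 in the other. With the number as a block, 236 were higher and 214 lower, and 5 of these 43 calls were lost.

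Reversed signs came only from transcripts that did not pass. These were Lars2 (0.0071 at 1 CPM in 4 libraries, 0.38 in fasted replicate 4 alone, -0.23 to 0.14 with 1 library left out), Srprb (-0.73 in fasted replicate 4 alone, -0.15 to 0.33 with 1 left out) and Cep85 (-0.025 with library totals, -0.081 with the block, -0.084 in limma-voom, -0.16 to 0.25 with 1 left out). They were also Gpd1 (0.039 at 1 CPM in 4 libraries, 0.36 in fasted replicate 4 alone, -0.17 to 0.13 with 1 left out), Nags (-0.051 to 0.12 with 1 left out), Elovl6 (0.24 in fasted replicate 4 alone, -0.47 to 0.62 with 1 left out), Ddit3 (-0.0018 in limma-voom, -0.057 to 0.54 with 1 left out), Aldh1a1 (-0.035 to 0.41 with 1 left out) and Cycs (-0.0089 to 0.34 with 1 left out). In fasted replicate 4 alone, Eif4ebp1 was at -0.078 and Srsf5 at 0.038.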
